A study of Mus musculus with 18 samples.

Results

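The expression of 10 thyroid and glucocorticoid response genes was followed in Tcf21-lineage cardiac fibroblasts of the mouse. The genes were taken by name from the 55453 gene symbols of a table of RNA sequencing counts, of which 16170 passed the filter on low counts and were tested, and all 10 genes were among those tested. They are the thyroid hormone receptors Thra and Thrb, the deiodinases Dio2 and Dio3, the hormone-induced transcription factor Klf9, the glucocorticoid receptor Nr3c1, the glucocorticoid-induced genes Fkbp5, Tsc22d3 and Zbtb16, and the steroid enzyme Hsd11b1.

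The study asked how cardiac fibroblasts mature after birth and how they respond to removal of the heart apex at an age when the mouse heart regenerates (P2, postnatal day 2) and at an age when it does not (P10). All 18 libraries came from Tcf21-MerCreMer; Rosa-mTmG pups on the C57BL/6J strain. Every group, controls included, received tamoxifen at P1, which turns on membrane GFP in cells that express the Cre from the Tcf21 locus, so the cells are those that expressed Tcf21 around that day together with their descendants. The GFP+ cells of the apical ventricle were collected by FACS. Pups of the baseline groups were left without surgery and taken at P2 or P10. Those of the sham and resected groups were operated on at P2 or P10, the resected pups losing the apex, and were taken 3 days later, at P5 or P13. Each of the 6 groups held 3 libraries. Sex and the number of pups per library are not in the labels, and nothing in them says that replicates were separate animals, so the p-values measure the spread between these samples, which may be technical. Counting of reads gave 10462737 to 22980554 counts per library. Values are given as CPM, the count of a gene per 1000000 counts of the effective size of its library.

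Thyroid hormone acts mainly through nuclear receptors that sit on DNA with or without hormone, and its level inside a cell is set in part by deiodinases, of which Dio2 makes the active hormone and Dio3 destroys it. Glucocorticoids bind Nr3c1 in the cytoplasm, the loaded receptor moves to the nucleus, and Hsd11b1 regenerates active glucocorticoid from its inert keto form inside the cell. In rodents, circulating thyroid hormone rises after birth and the adrenal response to stress is muted in early postnatal life, and both hormones are known for their part in the maturation of the heart. Fibroblasts respond to both.

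The levels of the 10 genes lay far apart. Per kilobase of exon, the median over the 18 libraries was 37.1 CPM for Tsc22d3, 25.9 for Thra, 25.5 for Klf9 and 19.5 for Nr3c1, and the ranges of these genes overlapped. Fkbp5 had a median of 4.52 CPM per kilobase, Dio2 of 2.21, Hsd11b1 of 1.61 and Zbtb16 of 0.568. Dio3 and Thrb were close to the limit of detection, with medians of 0.222 and 0.0212 CPM per kilobase, and had no count in 6 and 5 of the 18 libraries. The highest library of Thrb reached 0.318 CPM per kilobase and the lowest of Thra 18.3, so Thra was the thyroid hormone receptor gene of higher level in every library.

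Between the ages, 4 of the 10 genes rose and none fell past the threshold. Libraries collected from P10 on (the P10 window, 9 libraries) were compared with those of the P2 window (9 libraries), and Thrb, Klf9, Tsc22d3 and Hsd11b1 were higher in the P10 window with an adjusted p under 0.05 (edgeR quasi-likelihood test, Benjamini-Hochberg adjustment over all genes tested). Of all genes tested, 13.5% were called in this comparison, 7.11% as higher and 6.39% as lower. The median log2 fold change of the 10 genes was 1.22, also with Thrb and Dio3 set at the ratio of their summed counts, and that of all genes tested was -0.060. DESeq2 called 5 of the 10 genes, Dio2 with these 4, where it called 19.3% of all genes with an adjusted p. Limma-voom with quality weights called 7, Thra, Dio3 and Fkbp5 with these 4, where it called 28.3% of all genes tested.

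**Figure D1:**
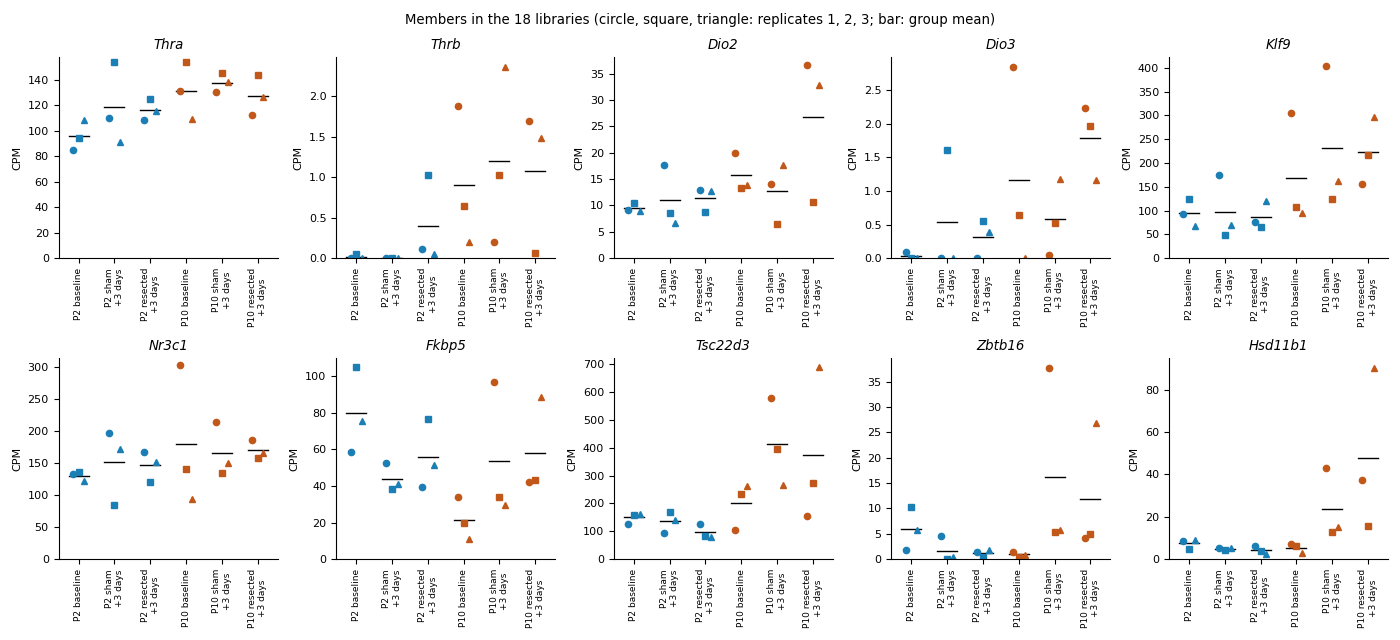
CPM of the 10 genes in each of the 18 libraries, with the 6 groups along the horizontal axis, 1 point per library, blue for the P2 window and orange for the P10 window, and a bar at each group mean. The highest libraries of Tsc22d3, Zbtb16 and Hsd11b1 were from P13, the lowest group mean of Fkbp5 was at P10 baseline, and the windows of Thra and Nr3c1 overlapped.

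The receptor genes of thyroid hormone were read first. Thra (chr11:98740638-98769006, plus strand, GRCm38) encodes the receptor that dominates in the heart. Its CPM was 84.7, 93.9 and 108 at P2 baseline, 110.0, 154 and 91.3 after P2 sham surgery, and 108, 125 and 115 after P2 resection. In the P10 window it was 131, 154 and 109 at baseline, 129.9, 145 and 138 after sham surgery, and 112, 144 and 126 after resection. The windows overlapped over most of their range, and the log2 fold change was 0.27 ± 0.12 (SE, adjusted p = 0.16). Of the exon bases of Thra, 5.7% lie under Nr1d1, a clock gene on the opposite strand, and reads there cannot be assigned to either gene without strand.

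Thrb (chr14:17660261-18038090, plus strand), the other receptor gene, was almost silent at the younger ages. P2 baseline libraries held 0, 1 and 0 counts, P2 sham +3 days libraries 0, 0 and 0, and P2 resected +3 days libraries 2, 24 and 1. In the P10 window the counts were 31, 12 and 2 at baseline, 4, 16 and 50 after sham surgery, and 34, 1 and 19 after resection. The spread inside each P10 group was wide, and 2 of the P2 resected libraries overlapped with the P10 window. Over the windows, 169 counts stood against 28, a 7.08-fold higher level (exact 95% counting interval 4.73 to 11.0, counting error only). The library P2 resected +3 days replicate 2 held 24 of the 28 counts, and without it the ratio was 43.0 (16.5 to 159.6). The edgeR test compared fitted group means instead, and gave log2 4.72 ± 1.05 (adjusted p = 0.00674). The size of that value depends on how the empty P2 sham group is fitted. Group by group, the P10 baseline level was 59.2-fold that of P2 baseline (exact 95% counting interval 10.1 to 2391, 45 counts against 1). It was 29.0-fold without P10 baseline replicate 1, 37.7-fold without P2 baseline replicate 1 and at least 12.6-fold without P2 baseline replicate 2, which held the single count. The P10 sham level was at least 24.1-fold higher than the P2 sham level, taking 3 counts over the group as the floor. Without P10 sham +3 days replicate 3 that bound was 11.0, and without one of the P2 sham libraries it was 15.2 to 17.8. Within the resected groups 54 counts stood against 27, a ratio of 2.41 (1.49 to 3.97), which was 13.0 without P2 resected +3 days replicate 2 and 1.52 (0.807 to 2.81) without P10 resected +3 days replicate 1.

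edgeR called neither deiodinase over the windows, while DESeq2 called Dio2 and limma-voom Dio3. Dio2 (chr12:90724552-90738438, minus strand) had a CPM of 9.12, 10.4 and 8.96 at P2 baseline, 17.6, 8.53 and 6.72 after P2 sham surgery, and 13.0, 8.67 and 12.7 after P2 resection. In the P10 window it was 20.0, 13.3 and 13.8 at baseline, 14.1, 6.47 and 17.7 after sham surgery, and 36.6, 10.7 and 32.9 after resection. All 3 P10 baseline libraries were above the P2 baseline libraries, both libraries over 30 CPM were from P10 resection, and the lowest of all was a P10 sham library. The window difference was 0.72 ± 0.28 on the log2 scale and missed the threshold (adjusted p = 0.0922), with a range of 0.0346 to 0.183 over 24 alternatives, under 0.05 in 3. Of the Dio2 exon bases, 1.72% lie under Gm26512 on the opposite strand.

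Dio3 (chr12:110279068-110281097, plus strand), the inactivating enzyme, was low and had 2, 0 and 0 counts at P2 baseline, 0, 35 and 0 after P2 sham surgery, 0, 13 and 7 after P2 resection, 47, 12 and 0 at P10 baseline, 1, 8 and 25 after P10 sham surgery and 45, 31 and 15 after P10 resection. Empty libraries occurred in both windows, and the P10 resected libraries were all above the P2 resected libraries. The summed counts were 184 in the P10 window and 57 in the P2 window, a ratio of 3.79 (2.80 to 5.19), and without P2 sham +3 days replicate 2 the ratio was 8.61. The edgeR fit of group means gave log2 2.50 ± 1.15, with an adjusted p of 0.165 (0.0199 to 0.276 over 24 alternatives, under 0.05 in 2).

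Klf9 (chr19:23141226-23168134, plus strand) encodes a transcription factor that both hormones induce. Its CPM was 92.6, 125 and 66.5 at P2 baseline, 175, 48.5 and 70.4 after P2 sham surgery and 76.8, 64.8 and 120.5 after P2 resection. In the P10 window it was 305, 108 and 94.5 at baseline, 404, 125 and 162 after sham surgery and 155, 216 and 296 after resection. The windows overlapped, while the resected groups did not. The mean rose from 93.3 ± 39.8 CPM (SD, n = 9) to 207 ± 106, which was 2.20-fold in the fit (log2 1.14 ± 0.31, adjusted p = 0.0196). The log2 difference was 0.84 between the baseline groups, 1.23 between the sham groups and 1.35 between the resected groups, none with an adjusted p under 0.05. Without P10 baseline replicate 1 the baseline difference was 0.10, and the sham difference was 0.55 without P10 sham +3 days replicate 1 and 1.95 without P2 sham +3 days replicate 1.

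Tsc22d3 (chrX:140539528-140600659, minus strand) encodes the glucocorticoid-induced leucine zipper protein, which holds back inflammatory transcription factors. Its CPM was 127, 160.4 and 162 at P2 baseline, 93.3, 171 and 142 after P2 sham surgery and 128, 82.1 and 80.1 after P2 resection. It was 105, 235 and 263 at P10 baseline, 580.5, 395 and 266 after P10 sham surgery and 156, 272 and 691 after P10 resection. All libraries of P10 sham were above those of P2 sham, and likewise for resection, while the baseline groups overlapped. The mean rose from 127 ± 35.2 CPM to 329 ± 193 (SD, n = 9), 2.51-fold in the fit (log2 1.33 ± 0.26, adjusted p = 0.00233). The log2 difference was 0.42 (95% interval -0.53 to 1.37) at baseline, 1.61 (adjusted p = 0.0696) after sham surgery and 1.95 (adjusted p = 0.0606) after resection, the last 1.17 without P10 resected +3 days replicate 3.

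Hsd11b1 (chr1:193221634-193264075, minus strand), the enzyme that regenerates active glucocorticoid, was high at P13 alone. Its CPM was 8.75, 5.02 and 8.83 at P2 baseline, 5.11, 4.29 and 5.29 after P2 sham surgery and 6.39, 3.72 and 2.53 after P2 resection. It was 7.28, 6.05 and 2.76 at P10 baseline, 42.9, 12.7 and 15.1 after P10 sham surgery and 37.4, 15.8 and 90.4 after P10 resection. Every library of P13 was above every other library, and the P10 baseline libraries lay inside the range of the P2 window. The window difference was 3.39-fold (log2 1.76 ± 0.35, adjusted p = 0.00215). At baseline the log2 difference was -0.48 ± 0.59, after sham surgery 2.27 ± 0.61 (adjusted p = 0.0512, and 1.50 without P10 sham +3 days replicate 1) and after resection 3.50 ± 0.64 (adjusted p = 0.0121).

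**Figure D2:**
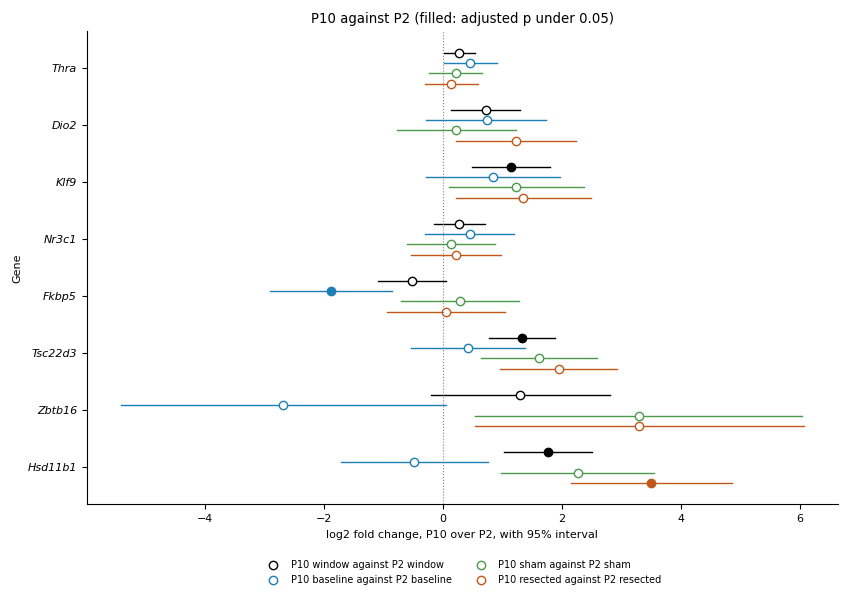
Log2 fold change of P10 over P2 with its 95% interval for 8 of the 10 genes, in the window comparison and in baseline, sham and resected groups separately, with filled points for an adjusted p under 0.05. Hsd11b1 lay at -0.48 at baseline and at 2.27 and 3.50 after sham surgery and resection, and Fkbp5 lay at -1.88 at baseline and near 0 in both others. Thrb and Dio3 are left out because some of their groups held at most 3 counts.

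The bases upstream of the genes that rose are shown because these genes were called together in the window comparison. RefSeq start sites on GRCm38.p6 matched 7 of the 10 genes, with 10 windows of 250 bases before a start. The motifs searched, on both strands, were the glucocorticoid receptor half-site AGAACA and the thyroid hormone receptor half-site AGGTCA, and their matches are in capitals, as TGTTCT or TGACCT where the match is on the other strand.
Thrb, upstream start, chr14:17660710-17660959, plus strand: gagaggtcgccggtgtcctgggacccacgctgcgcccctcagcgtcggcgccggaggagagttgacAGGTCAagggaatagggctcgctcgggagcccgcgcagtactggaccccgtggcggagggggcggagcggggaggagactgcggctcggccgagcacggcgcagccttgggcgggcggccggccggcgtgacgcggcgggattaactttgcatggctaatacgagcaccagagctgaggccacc
Thrb, downstream start, chr14:17981394-17981643, plus strand: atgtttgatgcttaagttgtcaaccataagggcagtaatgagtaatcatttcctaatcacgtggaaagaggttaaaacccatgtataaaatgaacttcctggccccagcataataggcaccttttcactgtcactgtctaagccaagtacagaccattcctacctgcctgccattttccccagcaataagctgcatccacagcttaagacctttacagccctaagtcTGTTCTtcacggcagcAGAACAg
Tsc22d3, most upstream start, chrX:140600523-140600772, minus strand: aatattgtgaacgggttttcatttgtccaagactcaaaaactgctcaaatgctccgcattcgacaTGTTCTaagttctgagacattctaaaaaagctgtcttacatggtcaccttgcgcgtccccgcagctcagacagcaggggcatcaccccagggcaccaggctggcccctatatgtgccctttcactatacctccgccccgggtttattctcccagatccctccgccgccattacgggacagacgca
Klf9, chr19:23140976-23141225, plus strand: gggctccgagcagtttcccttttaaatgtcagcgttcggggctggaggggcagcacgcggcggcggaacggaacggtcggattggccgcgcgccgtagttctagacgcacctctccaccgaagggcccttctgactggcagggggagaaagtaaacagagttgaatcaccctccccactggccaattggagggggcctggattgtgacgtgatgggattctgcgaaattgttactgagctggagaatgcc
Hsd11b1, chr1:193242361-193242610, minus strand: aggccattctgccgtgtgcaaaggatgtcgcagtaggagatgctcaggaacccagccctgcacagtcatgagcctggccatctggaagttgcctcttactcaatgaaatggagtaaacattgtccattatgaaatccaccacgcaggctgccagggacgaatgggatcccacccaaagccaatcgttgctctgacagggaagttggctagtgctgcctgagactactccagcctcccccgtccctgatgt
AGAACA was found in 2 of the 10 windows, with 2 matches before the downstream start of Thrb and 1 before the most upstream start of Tsc22d3, whose other windows held none, and 16.1% of all 32851 windows of this length held it. AGGTCA was found in 1 of the 10, before the upstream start of Thrb, against 14% of all windows. The Klf9 and Hsd11b1 windows held neither. No window of these genes held the full palindrome (AGAACA and TGTTCT with a spacer of 3 bases, in 0.00913% of all windows) or the direct repeat (AGGTCA and AGGTCA with a spacer of 4 bases, in 0.0152%), which says only that these letters are not in these windows.

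edgeR did not call Fkbp5, Zbtb16 or Nr3c1 in the window comparison, and limma-voom called Fkbp5 as lower. Fkbp5 (chr17:28399094-28517527, minus strand), a co-chaperone that lowers the affinity of the glucocorticoid receptor for its hormone, moved the other way at baseline. Its CPM was 58.4, 105 and 75.6 at P2 baseline and 34.0, 20.0 and 10.9 at P10 baseline, so the groups did not overlap, and it fell by 1.88 ± 0.49 on the log2 scale (edgeR adjusted p = 0.0344). It was the only one of the 10 genes that edgeR called there, against 4.38% of all genes tested called and 1.68% called lower. DESeq2 called 2 of the 10, Fkbp5 and Thrb, against 10.4% of all genes with an adjusted p, and limma-voom 2, Fkbp5 and Thra, against 22.5% of all genes tested. The call was lost in 6 of 13 alternatives, among them 5 in which a single library of either baseline group was left out, with adjusted p between 7.75e-05 and 0.15 over all 13. In the same comparison 6 of 6 mural markers had a log2 difference above 0 (median 1.20, 3 called by edgeR), as did 7 of 8 macrophage (0.97), 3 of 7 endothelial (-0.43), 0 of 9 cardiomyocyte (-1.16) and 0 of 6 epicardial markers (-4.50), none of these called. The part of other cell types in this difference was not tested.

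After surgery edgeR did not call Fkbp5. Its CPM was 52.6, 38.3 and 41.2 after P2 sham surgery, 39.6, 76.6 and 51.4 after P2 resection, 97.0, 33.8 and 29.5 after P10 sham surgery and 42.1, 43.4 and 88.4 after P10 resection. Both the highest and the lowest of these were P10 sham libraries. The age difference was 0.28 ± 0.47 (log2) after sham surgery and 0.052 ± 0.47 after resection, and its sign turned when P10 sham +3 days replicate 1 (-0.48) or P10 resected +3 days replicate 3 (-0.38) was left out. Over the windows Fkbp5 stood at -0.52 ± 0.27 (adjusted p = 0.228, and 0.00877 to 0.388 over 24 alternatives, under 0.05 in 3).

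Zbtb16 (chr9:48654297-48836222, minus strand), a zinc finger repressor known for a large response to glucocorticoid, was low and uneven. Its CPM was 1.75, 10.3 and 5.73 at P2 baseline, 4.55, 0 and 0.392 after P2 sham surgery and 1.35, 0.427 and 1.87 after P2 resection. It was 1.40, 0.482 and 0.888 at P10 baseline, 37.7, 5.30 and 5.71 after P10 sham surgery and 4.13, 4.89 and 26.8 after P10 resection. P10 baseline lay below all of P2 baseline, and the P10 sham and P10 resected libraries lay above the P2 libraries of the same surgery. None of these passed the edgeR test over all genes. The log2 difference was -2.68 ± 1.30 at baseline (adjusted p = 0.279), 3.29 ± 1.30 after sham surgery (0.216), 3.29 ± 1.31 after resection (0.415) and 1.30 ± 0.71 over the windows (0.251). Without P2 sham +3 days replicate 1 the window difference was 2.35 (adjusted p = 0.028) and the sham difference 6.43 (adjusted p = 0.0367). Without P10 sham +3 days replicate 1 they were 0.78 and 1.73. Without P10 resected +3 days replicate 3 the window difference was 0.86 and the resected difference 1.92.

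Nr3c1 (chr18:39410545-39519421, minus strand), the glucocorticoid receptor gene, was called over the windows by none of the 3 tools. The lowest, median and highest CPM were 83.7, 136 and 197 in the P2 window and 94.3, 157 and 302 in the P10 window, so the windows overlapped, with 2 P10 libraries above every P2 library. The log2 fold change was 0.27 ± 0.21, with a 95% interval of -0.16 to 0.70 (adjusted p = 0.433), and at baseline it was 0.45 ± 0.36 and turned to -0.16 without P10 baseline replicate 1, the library with 302 CPM.

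Within each kind of group, the age comparison by edgeR called Hsd11b1 after resection, Fkbp5 at baseline and none of the 10 genes after sham surgery. After resection 0.86% of all genes tested were called, 0.625% as higher. The call of Hsd11b1 was lost without P10 resected +3 days replicate 3 (log2 2.67, adjusted p = 0.0953), P2 resected +3 days replicate 2 (3.42, 0.102) or P2 resected +3 days replicate 3 (3.24, 0.0936). Between the resected groups 8 of 8 macrophage (median 1.18), 6 of 7 endothelial (0.66), 5 of 6 epicardial (1.83), 3 of 6 mural (-0.040) and 2 of 9 cardiomyocyte markers (-0.55) had a log2 difference above 0, edgeR called none of them, and their part was not tested. After sham surgery edgeR called 3.18% of all genes tested, and 5 of the 10 genes had an unadjusted p under 0.05, where 16.3% of all genes did. DESeq2 called 3 there, namely Thrb, Tsc22d3 and Hsd11b1, against 8.01% of all genes with an adjusted p, and limma-voom 0, against 4.37%. Between the sham groups 8 of 8 macrophage (median 1.40) and 5 of 6 mural markers (0.40) had a log2 difference above 0. So did 2 of 7 endothelial (-0.20), 2 of 6 epicardial (-0.99) and 1 of 9 cardiomyocyte markers (-1.40). edgeR called none of them, and their part was not tested. After resection DESeq2 called 2 of the 10, Tsc22d3 and Hsd11b1, against 4.09% of all genes with an adjusted p, and limma-voom 3, Klf9, Tsc22d3 and Hsd11b1, against 5.62% of all genes tested.

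In resection against sham surgery edgeR called none of the 10 genes at either age, and 0% of all genes tested at P2, at P10 and in the difference between the ages. DESeq2 and limma-voom called none of the 10 either. Over all genes DESeq2 called 34 at P2, 43 at P10 and 26 in the difference between the ages, and limma-voom 0 in each. At an unadjusted p under 0.05, edgeR gave 1 of the 10 genes at each age (730 and 661 of all genes) and 1, Thrb, in the difference between the ages (465 of all). At P2 the gene was also Thrb (adjusted p = 1), with 27 counts after resection and 0 after sham surgery, at least 8.99-fold. Without P2 resected +3 days replicate 2 only 3 counts were left, and without P2 sham +3 days replicate 1 or 2 the bound was 5.68 or 5.66. At P10 it was Dio2, with 36.6, 10.7 and 32.9 CPM after resection and 14.1, 6.47 and 17.7 after sham surgery, a log2 difference of 1.06 ± 0.48 (edgeR adjusted p = 1) in groups that overlapped. Hsd11b1 stood at 1.02 ± 0.58 at P10 (0.16 without P10 resected +3 days replicate 3, 1.78 without P10 sham +3 days replicate 1) and at -0.22 ± 0.59 at P2. In the P10 comparison all 7 endothelial, 8 macrophage and 6 epicardial markers had a log2 difference above 0, with medians of 1.47, 1.01 and 3.71. edgeR called none of them, 0, 0 and 1 had an unadjusted p under 0.05, and their part in the result was not tested. The difference between these resection effects was 1.24 ± 0.83 for Hsd11b1 (95% interval -0.51 to 2.99) and 1.00 ± 0.67 for Dio2 (-0.42 to 2.42), and neither interval leaves out 0 or a difference of several-fold. For Tsc22d3 the P10 difference was -0.15 (95% interval -1.10 to 0.80) and for Fkbp5 0.12 (-0.87 to 1.10), and both signs turned with some libraries left out.

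**Figure D3:**
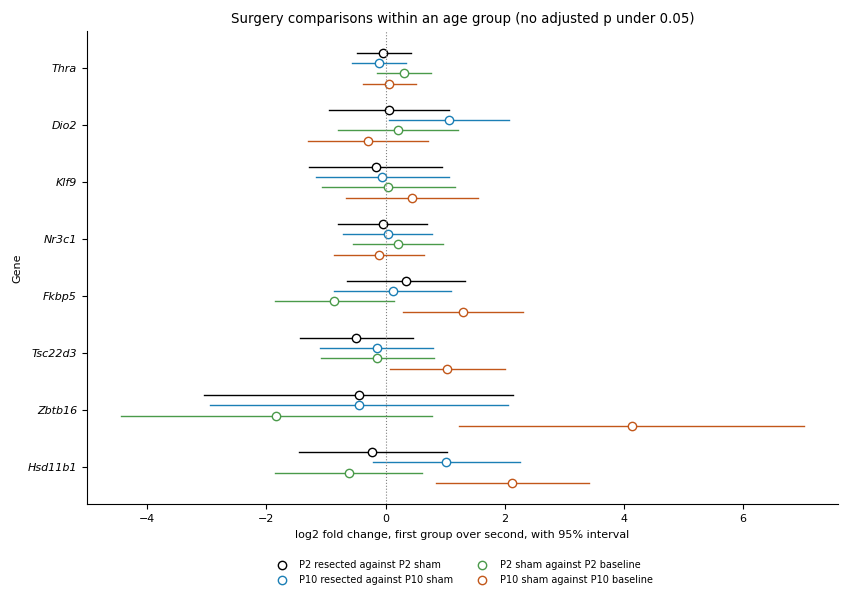
Log2 fold change with its 95% interval for 8 of the 10 genes, resected over sham and sham over baseline at each age. None had an adjusted p under 0.05, and Zbtb16, Hsd11b1, Fkbp5 and Tsc22d3 were at 4.13, 2.13, 1.30 and 1.04 in P10 sham over P10 baseline. The intervals of all 4 lie above 0, and without P10 sham +3 days replicate 1 the first 3 values were 2.57, 1.37 and 0.55.

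Sham surgery was also compared with the baseline of the same age group, a comparison that includes 3 days of growth. At P2 edgeR called none of the 10 genes (0% of all genes tested), none had an unadjusted p under 0.05, and 1229 of all genes had one. DESeq2 called 0 of the 10 there, against 1.09% of all genes with an adjusted p, and limma-voom 0, against 0% of all genes tested. Fkbp5 was lower in all 3 P2 sham libraries than in P2 baseline, by -0.86 ± 0.47 on the log2 scale (adjusted p = 0.692). At P10 edgeR called none of the 10 either, against 0.00618% of all genes tested, but 4 of the 10 had an unadjusted p under 0.05, where 7.4% of all genes did. They were Zbtb16 (log2 4.13 ± 1.37, edgeR adjusted p = 0.575), Hsd11b1 (2.13 ± 0.61, 0.419), Fkbp5 (1.30 ± 0.48, 0.634) and Tsc22d3 (1.04 ± 0.45, 0.651). For Zbtb16, Hsd11b1 and Tsc22d3 all 3 sham libraries were above all 3 baseline libraries, and the share of all genes that separate in this way was not counted. DESeq2 called Zbtb16 (adjusted p = 0.0486) and Hsd11b1 (0.0484), against 0.963% of all genes with an adjusted p, and limma-voom called 0. Without P10 sham +3 days replicate 1 the differences were 2.57 for Zbtb16, 1.37 for Hsd11b1 and 0.55 for Fkbp5. In the same comparison 8 of 8 macrophage markers had a log2 difference above 0 (median 1.06), as did 4 of 6 epicardial (2.25), 3 of 7 endothelial (-0.34), 2 of 9 cardiomyocyte (-0.56), 0 of 6 mural (-0.43) and 1 of 9 dissociation genes (-0.43). edgeR called none of these, and their part in the result was not tested. The 1 gene of all 16170 that edgeR called at P10 was Angptl4, a lipase inhibitor and known glucocorticoid target on a list given below, at log2 1.51 ± 0.20 (adjusted p = 0.0115). That list was chosen with earlier results of these data known, so the place of Angptl4 on it is not an independent test.

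The age difference after sham surgery was set against that at baseline in a contrast added after the values were seen. It was 2.16 ± 0.67 for Fkbp5, 5.96 ± 1.84 for Zbtb16, 2.75 ± 0.84 for Hsd11b1 and 1.18 ± 0.64 for Tsc22d3 on the log2 scale, the 4 genes whose values prompted the contrast. In all, 6 of the 10 genes were above 0 (the others were Thrb at 2.14 ± 1.87 and Klf9 at 0.40 ± 0.75) and 4 were below it, with Thra at -0.25 ± 0.30, Nr3c1 at -0.32 ± 0.50, Dio2 at -0.50 ± 0.67 and Dio3 at -4.82 ± 2.83. For Thrb the P2 sham group was empty, so the counts do not set the size or sign of its value. The signs of Klf9, Nr3c1, Dio2 and Dio3 turned in at least 1 alternative, and without P10 sham +3 days replicate 1 the difference was 1.40 for Fkbp5, 4.41 for Zbtb16 (9.11 without P2 sham +3 days replicate 1) and 1.99 for Hsd11b1. edgeR called none of the 10 genes and 0% of all genes tested, 3 of the 10 had an unadjusted p under 0.05 (1067 of all genes), with an adjusted p of 0.555 for Fkbp5, Zbtb16 and Hsd11b1, while DESeq2 called 1, Zbtb16, against 0.781% of all genes with an adjusted p, and limma-voom 0.

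Some libraries were the highest of their group for several of the 10 genes, and for many of all genes tested as well. Whether the counts for the 10 genes exceed those shares was not tested. P10 sham +3 days replicate 1 had the highest CPM of its group for 6 of the 10 genes (Klf9, Nr3c1, Fkbp5, Tsc22d3, Zbtb16 and Hsd11b1), where it was the highest for 40.2% of all genes tested. P10 resected +3 days replicate 3 was the highest of its group for 5, the same genes without Nr3c1, against 32.8% of all genes tested. P10 baseline replicate 1 was the highest for 8 of the 10, against 43.2%. In the P2 window, P2 baseline replicate 2 was the highest for 6 (Thrb, Dio2, Klf9, Nr3c1, Fkbp5 and Zbtb16), against 34.3%, P2 sham +3 days replicate 1 for 5, against 41.5%, and no P2 resected library for more than 4. The quality weights of limma-voom, which fall for libraries far from their group, were lowest for P2 sham +3 days replicate 1 (0.223), P10 baseline replicate 1 (0.293) and P10 sham +3 days replicate 1 (0.361). Without these 3 libraries the window comparison called Fkbp5 as lower (log2 -0.88, adjusted p = 0.00877) together with the 4 genes above, and the resected comparison called 3 genes.

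In the rest of the thyroid pathway, calls over the windows went in both directions, where 7.11% of all genes tested were called higher and 6.39% lower. Of 11 receptor partners and coregulators 2 rose, the retinoid X receptors Rxrb (log2 0.76 ± 0.19, adjusted p = 0.0143) and Rxra (0.44 ± 0.14, 0.0461), and none fell, with a list median of -0.085. Of 10 classical targets 1 rose and 2 fell, with a list median of 0.33. The one that rose was Hr, a corepressor gene induced by thyroid hormone, from 15.4 ± 7.49 to 36.4 ± 12.0 CPM (log2 1.30 ± 0.23, adjusted p = 0.000905). Those that fell were Adrb1, a beta-adrenergic receptor gene (log2 -2.10 ± 0.50, adjusted p = 0.00871), and Ppargc1a, a coactivator of mitochondrial genes (-3.30 ± 0.99, 0.0342), which reached 10.7 and 8.15 CPM at most.

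Among 20 other classical glucocorticoid targets, 9 rose in the P10 window and none fell, with 18 of 20 above 0 and a list median of 0.95, against 7.11% of all genes tested called higher and 6.39% lower. The list was chosen with earlier results of these data known, so these counts are a description and not an independent test. The time of tissue digestion also differed between the ages, as given below, and its part in these differences was not tested. Dusp1, a phosphatase that turns off MAP kinases, rose from 452 ± 89.0 to 1091 ± 351 CPM (SD, n = 9, log2 1.25 ± 0.17, adjusted p = 9.99e-05). Cebpd, a transcription factor gene of the acute phase response, rose from 251 ± 129 to 779 ± 248 CPM (1.62 ± 0.25, adjusted p = 0.000274). Angptl4 rose from 158 ± 52.0 to 326 ± 139.9 CPM (0.94 ± 0.11, adjusted p = 2.41e-05) and Errfi1, an inhibitor of EGF receptor signalling, from 87.7 ± 33.5 to 255 ± 147 CPM (1.50 ± 0.25, adjusted p = 0.00063). Mt1, Glul, Cebpb, Zfp36 and Sgk1 made up the 9. By kind of group, 1 of the 20 was called at baseline (Dusp1), 3 after sham surgery and 2 after resection, all higher at P10, against 4.38%, 3.18% and 0.86% of all genes tested. In P10 sham against P10 baseline 1 was called (Angptl4), against 0.00618%.

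**Figure D4:**
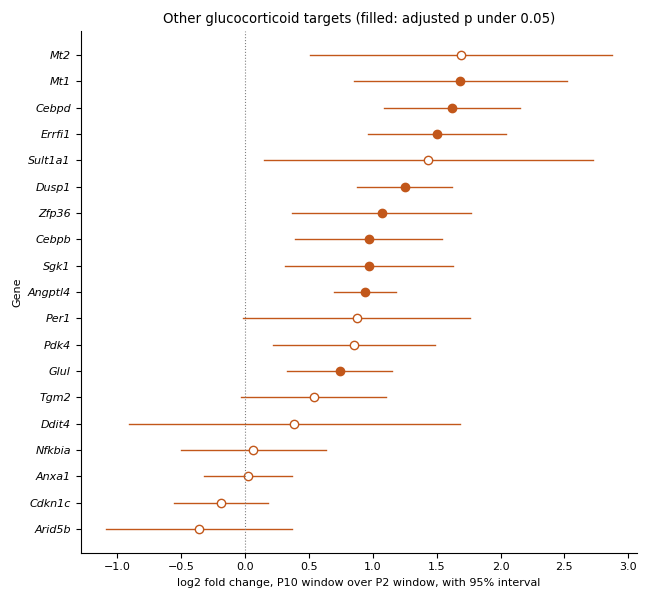
Log2 fold change of the P10 over the P2 window with its 95% interval for 19 other glucocorticoid targets, with filled points for an adjusted p under 0.05. The 9 called genes lie between 0.74 and 1.68, and the lowest values belong to Cdkn1c and Arid5b. Lcn2 is left out because no interval could be fitted to it.

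Of 9 relatives of the receptor, steroid enzymes and chaperones 2 rose and 1 fell over the windows, against 7.11% of all genes tested called higher and 6.39% lower. The list median was -0.081 beside -0.060 over all genes tested. H6pd, which makes the cofactor that Hsd11b1 needs, rose from 52.9 ± 18.5 to 117 ± 35.8 CPM (SD, n = 9, log2 1.15 ± 0.16, adjusted p = 0.000128). Hsd11b2, which inactivates glucocorticoid, rose from 1.17 ± 1.19 to 6.22 ± 5.50 CPM (2.77 ± 0.82, adjusted p = 0.0321) at a low level. Hsp90aa1, a chaperone of the unloaded receptor, fell from 190.4 ± 55.4 to 93.7 ± 50.1 CPM (-1.02 ± 0.28, adjusted p = 0.02).

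Other lists, also chosen with earlier results of these data known, moved with the windows as well. Of all genes tested, 7.11% were called higher and 6.39% lower in this comparison. Summed over the list, the 20 glucocorticoid targets ranged from 2073 to 3861 CPM in the P2 window and from 3917 to 8611 CPM in the P10 window, the highest being P10 resected +3 days replicate 3. Of 13 clock genes 6 rose and none fell (list median 0.78), led by Tef (log2 0.91 ± 0.14, adjusted p = 0.000323) and Nr1d1 (1.44 ± 0.27, 0.00147), and their sum was 333 to 631 CPM in the P2 window and 585 to 995 in the P10 window. The time of day of collection is not in the sources used here, and its part in the result was not tested. Of 9 genes known to respond to tissue dissociation 4 rose and none fell (list median 0.69), led by Jun (1.09 ± 0.15, adjusted p = 9.26e-05) and Junb (1.37 ± 0.22, 0.000313), with a sum of 2973 to 7205 CPM in the P2 window and 5853 to 12669 in the P10 window. Hearts from the later ages were digested for longer (20 minutes at P2 and P5, 30 minutes at P10 and P13), so age and digestion cannot be told apart. This holds for every gene compared between the ages, the glucocorticoid targets included.

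**Figure D5:**
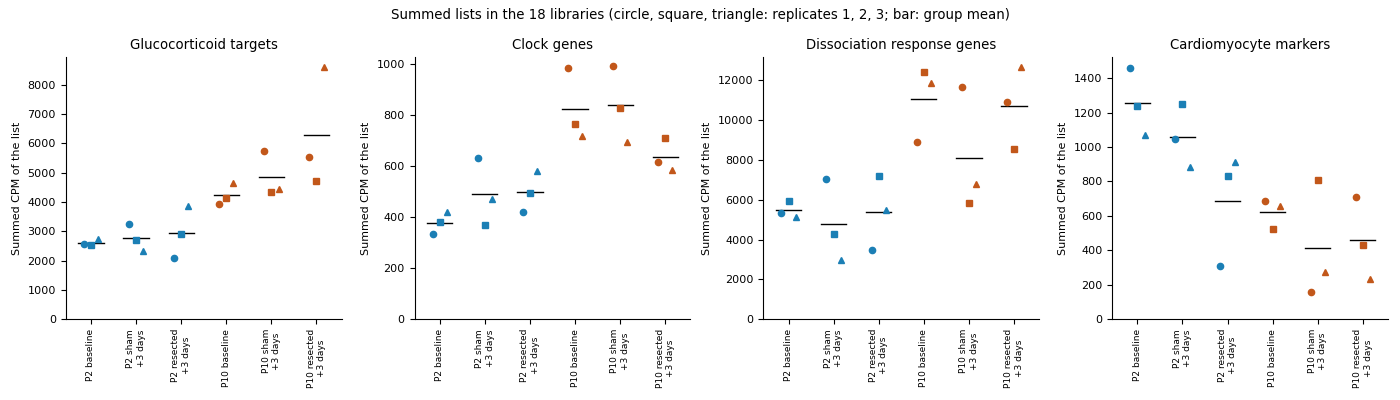
Summed CPM of 4 lists in each library, with the 6 groups along the horizontal axis, 1 point per library and a bar at each group mean. The glucocorticoid targets reached 3861 CPM at most in the P2 window and started at 3917 CPM in the P10 window, the clock and dissociation lists overlapped between the windows, and the cardiomyocyte markers, at 308 to 1456 CPM in the P2 window and 159 to 807 CPM in the P10 window, overlapped too.

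The sorted cells carried the markers of their label. Calls of markers over the windows stand beside 7.11% of all genes tested called higher and 6.39% lower. The 8 cardiac fibroblast markers summed to 45200 to 91568 CPM in the P2 window and 66697 to 104786 in the P10 window, with 3 of 8 higher (Dcn, Col3a1 and Lum). The 9 cardiomyocyte markers summed to 308 to 1456 and 159 to 807 CPM, with 4 of 9 lower, and the 6 mural cell markers to 293 to 777 and 475 to 1311 CPM, with 3 of 6 higher. edgeR called none of the 7 endothelial, 8 macrophage or 6 epicardial markers, of which 0, 1 and 1 had an unadjusted p under 0.05. Of the 8 macrophage markers 7 had a log2 difference above 0 over the windows (median 1.13). Summed, they ranged from 5.29 to 374 CPM in the P2 window and from 17.0 to 949 CPM in the P10 window. In the libraries taken at P13 the sums were 73.1, 297 and 224 CPM after sham surgery and 368, 949 and 59.7 CPM after resection. Fewer cells of a type and less RNA per cell cannot be told apart in bulk samples, and the part of other cell types in the window differences was not tested.

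The genes whose profile over the 18 libraries was most like that of a called gene are given as a description, by the Pearson correlation of log2 CPM, whose points share library depth and age. They were Il6st, Tgfbr3 and Man1a for Klf9 (r = 0.93, 0.93 and 0.917), and Rhoj, Glul and Smpdl3a for Tsc22d3 (0.911, 0.903 and 0.882). For Hsd11b1 they were Ms4a4d, Pgap2 and Isg20 (0.911, 0.893 and 0.892), for Fkbp5 Trim25, Iigp1 and Tmx3 (0.894, 0.893 and 0.885), and for Thrb, at its few counts, Gm11747, Sgsh and Phyhip (0.899, 0.815 and 0.801). Glul is itself one of the glucocorticoid targets listed above.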

How the data were processed

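The authors amplified RNA with a SMARTer kit, sequenced Nextera XT libraries from one end, trimmed reads with fastp 0.20.0, mapped them with STAR 2.7.0f to GRCm38.p6 and counted those on exons of each GENCODE symbol with featureCounts (Subread 1.6.4), without strand. The deposited values are raw counts in 18 columns, all matched to a sample. By its default, featureCounts drops reads that overlap several genes.

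Counts were tested with edgeR 4.0.16 (R 4.3.3). filterByExpr (minimum count 10, minimum total 15) kept 16170 of 55453 symbols. Libraries were scaled by TMM, 1 quasi-likelihood fit held all 18 libraries, contrasts of group means gave 9 comparisons, and adjusted p-values (Benjamini-Hochberg) under 0.05 were called. The age difference after sham surgery minus that at baseline was chosen after seeing the data. Alternatives were DESeq2 1.42.0 (the tool the study names), limma 3.58.1 (voom with quality weights), RLE scaling, no filter, only the groups compared, a replicate block and leaving out each library. The scripts were tested on simulated data. A group without counts was set at a floor of 3 counts over its summed effective library size (0.128 to 0.296 CPM for a single library), and ratios of few counts have exact 95% binomial intervals. Both cover counting error only, because PCR copies of a molecule were counted as separate reads. Log2 CPM for likeness used a prior count of 2. Gene positions and exon lengths are of GENCODE M21, a release before the authors' M22.

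The 10 genes and the other lists were chosen with earlier results of these data known. All 10 genes are named. Where groups are said not to overlap, the share of all genes that separate in that way was not counted. Genes of other lists are counted, and at most 4 per list, those of smallest adjusted p, are given with values where called over the windows or in resection against sham. Each called gene has its 3 most alike genes named. Angptl4 in the sham comparison, Mt1, Glul, Cebpb, Zfp36, Sgk1 and 3 uncalled glucocorticoid targets (Cdkn1c, Arid5b and Lcn2) fall outside this rule and were named after their values were seen. The study's spatial data were not used here. The result of 1 other list is not reported here.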

Additional observations from a re-analysis of the deposited data

Results flagged for a closer look

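Thrb in the P2 window stood out by 1 library. P2 resected +3 days replicate 2 had 24 counts (1.03 CPM), and on the log2 scale its distance to the next library was 0.689 of the whole range of the 9 P2 libraries, above the 95% limit of 0.493. The other 8 libraries held 0 to 2 counts. Chance flags about 1 in 20 such groups, and 10 genes in 2 windows were examined. The cause was not tested.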

How the results depend on the processing

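Thrb, Klf9, Tsc22d3 and Hsd11b1 were called over the windows in all 24 alternatives, with fitted log2 fold changes of 3.67 to 5.43, 0.89 to 1.38, 1.07 to 1.45 and 1.43 to 1.90. The number of the 10 genes called over the windows was 4, and 7 by limma-voom, 5 by DESeq2, 5 without the filter, 5 without the 3 libraries of lowest weight (an alternative chosen after seeing the data) and 4 to 6 with a library left out. At baseline it was 1, and 2 by DESeq2, 2 without the filter, 2 by limma-voom, 0 with only the groups compared, and 0 to 1 with a library left out. Between the sham groups it was 0, and 3 by DESeq2, 4 without the filter, and 0 to 1 with a library left out. Between the resected groups it was 1, and 2 by DESeq2, 4 without the filter, 3 by limma-voom, 3 without the 3 libraries, and 0 to 2 with a library left out. In P10 sham against baseline it was 0, and 2 by DESeq2 and 2 without the filter, and for the added contrast 0, and 1 by DESeq2 and 3 without the filter. In both resection comparisons, their difference and P2 sham against baseline it was 0 under each alternative run. Whether replicate numbers pair the libraries was not tested. Deviations from the group means had a median correlation of 0.0466 for the same number and -0.0248 for other numbers. Over 0.1 were 15 of 45 same-numbered pairs, and 10 of 18 libraries were closest to their own number. With the replicate block 1 gene, Hsd11b1, was called between the sham groups (adjusted p = 0.0479), with no other count moved. Over the 10 genes and 10 comparisons, 41 of 100 differences changed sign in at least 1 alternative, none of them called by edgeR and none over the windows. Of those given in the text, signs turned for Nr3c1 at baseline (-0.16 to 0.76 with a library left out, -0.16 without the 3 libraries), and for Fkbp5 between the sham groups (-0.21 by limma-voom, -0.33 without the 3 libraries, -0.48 to 0.57 with a library left out) and the resected groups (-0.18 by limma-voom, -0.38 to 0.35 with a library left out). In resection against sham they turned for Hsd11b1 at P2 (-0.64 to 0.046 with a library left out) and, at P10, for Tsc22d3 (0.18 without the 3 libraries, -0.95 to 0.22 with a library left out) and Fkbp5 (-0.33 to 0.87 with a library left out). In the added contrast they turned for Dio2 (0.0053 by limma-voom, 0.15 without the 3 libraries, -0.81 to 0.018 with a library left out), Dio3 (0.24 by limma-voom, -7.30 to 1.47 with a library left out), Klf9 (-0.28 to 1.14 with a library left out) and Nr3c1 (0.31 without the 3 libraries, -0.62 to 0.29 with a library left out). The causes were not tested. Over all genes DESeq2 called 3190, 1671, 1281 and 506 in the window, baseline, sham and resected comparisons, limma-voom 4569, 3645, 707 and 908, and edgeR 2183, 709, 515 and 139. Counts of Thrb and Dio3 were too few in many libraries for a difference under several-fold to be seen. Zbtb16 held 2027 counts, but its replicates lay far apart, and the standard error of its log2 difference between the sham groups was 1.30.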
